A study of Mus musculus with 6 samples.

Results

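The gap junction connexins of the epidermis described here were Gja1, Gjb2, Gjb5 and Gjb6, which encode connexin 43, connexin 26, connexin 31.1 and connexin 30. They were chosen by name, as 4 of the 35275 genes in the deposited table, and each was found by its Ensembl identifier (Gja1, ENSMUSG00000050953; Gjb2, ENSMUSG00000046352; Gjb5, ENSMUSG00000042357; Gjb6, ENSMUSG00000040055). They are 4 of 20 mouse connexin genes in the table, and all 4 had a mean of at least 1 FPKM (fragments per kilobase of gene, scaled to the mapped fragments of the library) over the 6 libraries, the level above which genes were tested.

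The libraries were made from fluorescent keratinocytes sorted from the back skin epidermis of CD1 IGS mouse embryos at E16.5, the day of gestation, after the pregnant dams had been fed doxycycline from E14.5. The K10-spastin group (genotype K10rtTA;TREspastin) and the control group had 3 libraries each. The protocol names 3 transgenes, K10-rtTA, TRE-H2B-GFP and TRE-Spastin: the keratin 10 promoter, active in suprabasal cells, controls rtTA, which in the presence of doxycycline switches on a nuclear green fluorescent protein and the microtubule-severing enzyme spastin. Sorted cells of both groups were positive for the fluorescent protein, but which other transgenes the control embryos carried, and how many embryos went into a library, the labels do not say. Differences are therefore between the groups as labelled, and p-values measure only how these samples scatter, which may be technical in part.

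Connexins are membrane proteins that assemble into rings, and a ring in one cell docks with a ring in its neighbour to form a channel through which ions and small metabolites pass. Clusters of such channels are gap junctions, and the connexins that a cell makes set which molecules pass and which cells can be coupled. Stratified epidermis uses several connexins in layers. Connexin 43 is the common connexin of basal and spinous keratinocytes, and connexins 26 and 30, which can share a channel, are scarce in resting human interfollicular epidermis and abundant in wounded, psoriatic and hyperproliferative human epidermis. In humans, variants of GJB2 and GJB6 cause deafness and disorders of skin thickening, and variants of GJA1 cause oculodentodigital dysplasia.

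The upstream sequence of each gene is shown first, because Gjb2 and Gjb6 lie next to each other on chromosome 14 and differed in these libraries in nearly the same way, while Gja1 (chromosome 10) and Gjb5 (chromosome 4) did not. All 4 genes matched the RefSeq promoter table, whose build is GRCm38.p6. The windows are the 250 bases before 1 annotated start per gene. Gja1 and Gjb6 have more than 1 annotated transcript, and any other starts were not searched. The windows lie at chr14:57104703-57104952 (minus strand) for Gjb2, chr14:57133612-57133861 (minus strand) for Gjb6, chr10:56377050-56377299 (plus strand) for Gja1 and chr4:127358165-127358414 (minus strand) for Gjb5. No source used here gives the build of the deposited table, so these positions belong to the RefSeq sequences alone. Capitals mark matches to 6 motifs searched on both strands: the AP-1 motif TGANTCA, the GC box GGGCGG, the TATA box TATAAA, the STAT motif TTCNNNGAA, the grainyhead-like motif AACCNGTT and the TEAD motif GGAATG.
Gjb2: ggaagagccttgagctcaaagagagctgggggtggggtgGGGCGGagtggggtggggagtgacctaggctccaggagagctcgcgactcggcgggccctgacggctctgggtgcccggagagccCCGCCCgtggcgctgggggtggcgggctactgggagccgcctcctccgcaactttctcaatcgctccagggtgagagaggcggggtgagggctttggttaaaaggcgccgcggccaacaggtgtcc
Gjb6: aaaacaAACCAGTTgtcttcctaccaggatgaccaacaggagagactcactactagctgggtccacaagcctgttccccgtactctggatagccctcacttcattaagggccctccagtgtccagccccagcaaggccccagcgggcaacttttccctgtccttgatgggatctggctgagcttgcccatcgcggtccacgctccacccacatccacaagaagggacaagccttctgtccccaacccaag
Gja1: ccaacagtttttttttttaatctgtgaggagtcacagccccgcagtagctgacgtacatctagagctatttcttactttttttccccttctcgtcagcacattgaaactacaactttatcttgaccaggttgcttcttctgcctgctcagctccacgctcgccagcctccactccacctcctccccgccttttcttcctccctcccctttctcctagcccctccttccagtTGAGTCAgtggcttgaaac
Gjb5: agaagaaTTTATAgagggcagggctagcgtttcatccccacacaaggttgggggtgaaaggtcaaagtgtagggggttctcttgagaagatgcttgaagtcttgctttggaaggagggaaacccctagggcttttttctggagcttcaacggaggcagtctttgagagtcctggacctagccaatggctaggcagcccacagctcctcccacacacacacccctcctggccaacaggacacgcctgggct
The Gjb2 window held 2 GC boxes, 1 on each strand, a motif that 32.7% of the 32851 windows in the table hold. The Gjb6 window held 1 grainyhead-like match, found in 1.79% of windows, and no GC box. The Gja1 window held an AP-1 match that ends 13 bases before the start, found in 6.75% of windows, and the Gjb5 window held 1 TATA box match, on the strand opposite to the gene and far upstream, found in 12.4% of windows. No motif was shared by the Gjb2 and Gjb6 windows, and no STAT (7.02% of windows) or TEAD (12.6%) match was found in any of the 4. The Gjb2 window was also the richest in G and C of the 4, at 69.2% with 18 CG pairs, against 56.8% and 5 for Gjb6, 50% and 6 for Gja1, and 54.4% and 3 for Gjb5. The median over all windows was 52.4% with 6 CG pairs. These are letter matches in short windows and not measured sites.

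Depth, read from the step size of the low FPKM values, was 16.0 to 22.5 M (mega) fragments per library, so that 3 fragments in a transcript of 1 kb were worth 0.133 to 0.187 FPKM. Spast, the induced gene, stood at 1431, 639 and 213 FPKM in K10-spastin 1 to 3, against 21.2, 24.0 and 21.4 FPKM in controls 1 to 3 (log2 change 4.65 ± 0.60, SE; limma adjusted p = 0.00865), so the library with the most Spast was K10-spastin 1. Log2 changes are of FPKM + 1, a scale that compresses changes in weakly expressed genes, and a gene was called at a limma adjusted p under 0.05, with adjustment over all 11071 genes tested. By that rule 11.0% of tested genes were called, 5.14% higher and 5.90% lower in K10-spastin. The libraries held keratinocytes by their markers: 6 spinous markers summed to 31269 to 46232 FPKM in K10-spastin and 51688 to 67976 FPKM in controls, and 7 basal markers to 2533 to 4774 and 4147 to 7235 FPKM. By limma the spinous marker Krt10 was called lower (means 15790 FPKM in K10-spastin and 27671 FPKM in controls). So was the basal marker Krt15 (means 260 and 1723 FPKM). Krt1 and Trp63 lay lower without overlap and were not called, and the remaining spinous and basal markers overlapped between groups. Of all tested genes, 24.8% lay lower in K10-spastin without overlap. The 5 granular markers in the table summed to 5043 to 17804 FPKM in K10-spastin and 1750 to 6010 FPKM in controls. Of these, Ivl and Asprv1 were called higher by limma, whereas Lor, Tgm3 and Casp14 overlapped between groups and were not called. Lor was the largest term in 5 of the 6 libraries. The 6 periderm markers summed to 80.0 to 113 FPKM in K10-spastin and 67.9 to 86.8 FPKM in controls. Grhl3 was the largest term in each library and was called higher by limma. The periderm keratins did not follow it. Krt13 was called lower by limma (0.129 to 3.79 FPKM in K10-spastin and 6.91 to 26.1 FPKM in controls). Krt8 lay lower without overlap and was not called, and Krt4, Krt18 and Krt19 overlapped between groups, with lower means in K10-spastin. Markers of other cells were given the same way. In K10-spastin and in control libraries, 6 fibroblast markers summed to 0.791 to 3.03 and 6.44 to 42.3 FPKM, 7 melanocyte markers to 2.02 to 24.6 and 4.32 to 17.9 FPKM, and 5 endothelial markers to 0.230 to 0.332 and 0.178 to 0.376 FPKM. In the same order, 5 immune markers summed to 0.296 to 1.86 and 0.0479 to 0.872 FPKM, with Cd207 and Cd3e at 0 throughout, 4 Merkel cell markers to 0.879 to 3.69 and 1.07 to 1.58 FPKM, 5 muscle markers to 1.57 to 2.61 and 1.304 to 2.54 FPKM, and 5 Schwann cell markers to 45.0 to 56.6 and 48.0 to 53.7 FPKM, nearly all of it Erbb3 (44.5 to 55.0 and 46.9 to 52.3 FPKM). The 6 hair follicle markers summed to 1709 to 10752 FPKM in K10-spastin and 166 to 276 FPKM in controls, and Krt17 made up most of each sum. Krt17 was called higher by limma, whereas Lhx2 was called lower (0.153 ± 0.138 FPKM in K10-spastin and 3.40 ± 2.92 FPKM in controls, SD, n = 3 each), Edar lay lower without overlap below the level tested, and Sox9, Krt79 and Shh overlapped between groups.

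Gja1 was the most abundant connexin in 5 of the 6 libraries, and its level was close in both groups. It stood at 419, 466 and 378 FPKM in K10-spastin 1 to 3, against 537, 463 and 413 FPKM in controls 1 to 3. The groups overlapped, with means of 421 ± 44.0 FPKM in K10-spastin and 471 ± 62.4 FPKM in controls (SD, n = 3 each). The log2 change was -0.16 ± 0.14 (SE; limma adjusted p = 0.494), with a 95% interval of -0.50 to 0.18, which is 0.709 to 1.13 times the control level. The median change of all tested genes was -0.09. Gja1 ranked 198th of 11071 tested genes by mean FPKM. In a bulk library, fewer cells of a type and less RNA per cell cannot be told apart, and this holds for each level given here.

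Gjb2 and Gjb6 had the largest differences among the 4 genes, and neither passed the test. Gjb2 stood at 753, 134 and 76.8 FPKM in K10-spastin 1 to 3, against 31.2, 66.2 and 54.4 FPKM in controls 1 to 3. Gjb6 stood at 285, 54.9 and 30.2 FPKM in K10-spastin 1 to 3, against 12.9, 24.5 and 17.0 FPKM in controls 1 to 3. For both genes every K10-spastin library lay above every control library, K10-spastin 1 lay far above the other 5, and K10-spastin 3 lay just above the highest control.

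The means of Gjb2 were 321 ± 375 FPKM in K10-spastin and 50.6 ± 17.8 FPKM in controls (SD, n = 3 each), and the log2 change was 2.02 ± 0.77 (SE). In limma its p was 0.0338 before and 0.125 after adjustment over all genes. Its 95% interval of 0.20 to 3.83 runs from 1.15 to 14.3 times the control level. The means of Gjb6 were 123 ± 140 FPKM in K10-spastin and 18.1 ± 5.92 FPKM in controls (SD, n = 3 each), and the log2 change was 2.10 ± 0.74 (SE), with an interval of 0.36 to 3.83. In limma its p was 0.0244 before and 0.104 after adjustment over all genes. The spread within K10-spastin was wide for both: the highest library was 9.81 times the lowest for Gjb2 and 9.42 times for Gjb6, against 2.12 and 1.91 times within the controls.

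K10-spastin 1 set much of the size of these differences. Without it the log2 change was 1.06 ± 0.37 for Gjb2 and 1.17 ± 0.34 for Gjb6 (SE; limma adjusted p = 0.111 and 0.0732). Without K10-spastin 3, the lowest of its group, Gjb6 passed with a log2 change of 2.77 (limma adjusted p = 0.0419) and Gjb2 did not, at 2.70 (0.0543). Within K10-spastin, Gjb2, Gjb6 and Spast had the same order of libraries, with 1 highest and 3 lowest. Krt17, a stress keratin also found in hair follicles, had that order too, at 10480, 3859 and 1651 FPKM in K10-spastin 1 to 3, against 184, 123 and 223 FPKM in controls 1 to 3. Of the 5 granular markers, Ivl and Tgm3 had the same order of K10-spastin libraries, Casp14 and Asprv1 were highest in library 1 and lowest in library 2, and Lor was highest in library 3. The part of these cells or states in the Gjb2 and Gjb6 values was not tested. An order of 3 libraries carries no test.

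Gjb5, which encodes an epidermal connexin of the differentiating layers, stood at 27.5, 10.6 and 18.5 FPKM in K10-spastin 1 to 3, against 20.2, 25.9 and 11.2 FPKM in controls 1 to 3. The groups overlapped almost wholly, at 18.9 ± 8.42 FPKM in K10-spastin and 19.1 ± 7.41 FPKM in controls (SD, n = 3 each). The log2 change was -0.04 ± 0.40 (SE; limma adjusted p = 0.961), and its 95% interval of -0.96 to 0.89 allows 0.513 to 1.85 times the control level, so a change of that size could not be seen with these libraries. The sign of this small value depended on the scaling, being 0.11 under median-of-ratios scaling, which moved the median of all genes to 0.05. Relative to that median, Gjb5 was at 0.05 as deposited and 0.06 under that scaling, and Gja1 was at -0.07 and -0.06. Gjb2 and Gjb5 have a single annotated transcript, so their values could be turned into approximate fragments, 3210 to 31500 in K10-spastin and 1690 to 2550 in controls for Gjb2, and 359 to 823 in K10-spastin and 320 to 783 in controls for Gjb5. Counting error at such numbers is small beside the spread between libraries.

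No member was called by limma, against 11.0% of all tested genes, and with 4 genes none called is near that share. An unadjusted p under 0.05 in limma was found for 2 of the 4, a level that 31.5% of all tested genes reached. Groups that did not overlap were likewise found in 2 of the 4, both higher in K10-spastin, against 40.4% of tested genes in either direction and 15.6% in that direction. The median log2 change of the 4 was 0.99, against -0.09 over all tested genes, and with 4 genes it falls between a pair near 0 and a pair near 2.

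**Figure D1:**
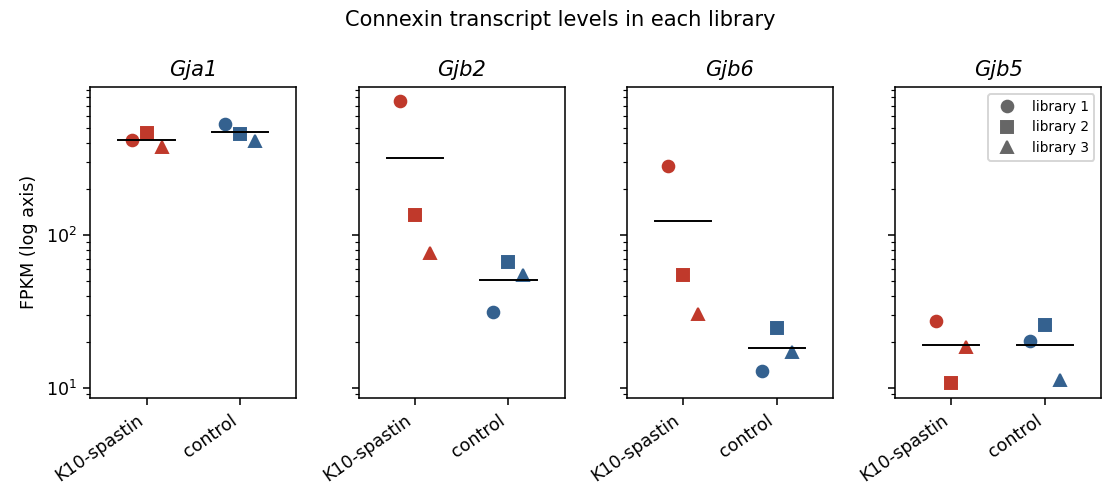
FPKM on a log axis of the 4 connexins in each library, with K10-spastin in red to the left of control in blue, marker shapes for library numbers, and black lines at the group means. Gja1 sits between 378 and 537 FPKM in all 6 libraries, whereas Gjb2 spans 31.2 to 753 FPKM and Gjb6 12.9 to 285 FPKM.

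**Figure D2:**
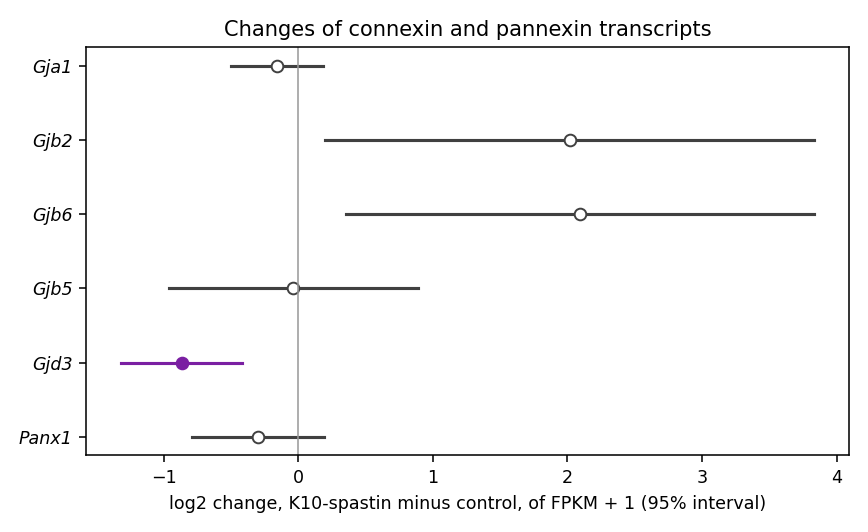
Log2 change of FPKM + 1, K10-spastin minus control, with 95% limma intervals, for the 4 connexins, Gjd3 and Panx1; filled purple points passed an adjusted p of 0.05 and open points did not. Only Gjd3, at -0.87, is filled, and the widest intervals are those of Gjb2 and Gjb6.

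FPKM is scaled by gene length, so levels can be set side by side within a library. In K10-spastin the order of mean levels was Gja1, Gjb2, Gjb6 and Gjb5, where Gja1 overlapped Gjb2 in range, Gjb2 overlapped Gjb6, and Gjb6 stood clear of Gjb5. In controls the order was Gja1, Gjb2, Gjb5 and Gjb6, where Gja1 stood clear of Gjb2, Gjb2 stood clear of Gjb5, and Gjb5 overlapped Gjb6. K10-spastin 1 was the only library in which Gja1 was not the highest, with Gjb2 at 1.797 times its level, against 0.288 and 0.203 times in K10-spastin 2 and 3, and 0.0581, 0.143 and 0.132 times in controls 1 to 3.

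The make-up of the connexin transcripts followed from these levels. Of the summed FPKM of the 4 genes, Gja1 held 28.2%, 70.0% and 75.1% in K10-spastin 1 to 3, against 89.3%, 79.9% and 83.3% in controls 1 to 3. Gjb2 held 50.7%, 20.2% and 15.2% in K10-spastin, against 5.18%, 11.4% and 10.98% in controls, and Gjb6 held 19.2%, 8.23% and 5.998% in K10-spastin, against 2.14%, 4.23% and 3.43% in controls. Every K10-spastin library thus had a smaller Gja1 share and larger Gjb2 and Gjb6 shares than every control. The Gjb5 share overlapped, at 1.596% to 3.67% in K10-spastin and 2.26% to 4.47% in controls. The sum of the 4 was 1484, 666 and 504 FPKM in K10-spastin 1 to 3, against 601, 580 and 495 FPKM in controls 1 to 3, so that the groups overlapped in total while differing in composition. Without K10-spastin 1 the mean Gja1 share was different by -11.6 percentage points (K10-spastin minus control), against -26.4 points with it. The shares are given as a description: an exact two-sided permutation test of 3 against 3 libraries cannot go below p = 0.1, the value it gave for Gja1, Gjb2 and Gjb6, and it gave 0.3 for Gjb5.

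**Figure D3:**
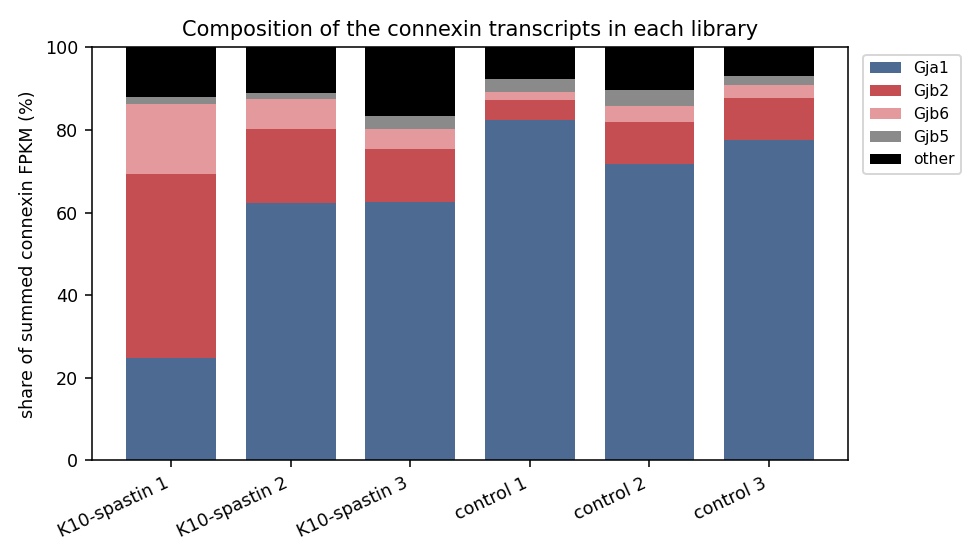
Share of the summed FPKM of all 20 connexins held by each of the 4 genes in each library (%), with the K10-spastin libraries on the left and all remaining connexins in black. Gja1 fills 24.8% to 62.6% of the K10-spastin bars and 71.7% to 82.4% of the control bars.

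Gjb2 and Gjb6 kept a nearly fixed proportion while their levels varied. Gjb2 was 2.65, 2.45 and 2.54 times Gjb6 in K10-spastin 1 to 3, against 2.42, 2.70 and 3.20 times in controls 1 to 3. This ratio stayed within 2.42 to 3.20 between libraries in which Gjb2 itself ran from 31.2 to 753 FPKM. When the log2 values of each gene were centred on its own mean over the 6 libraries, Gjb6 was the gene closest to Gjb2 of 6341 compared, with a root mean square difference of 0.13 on the log2 scale. The second for both was Stfa2, a stefin of the cystatin family of protease inhibitors, at 0.19 from Gjb2 and 0.26 from Gjb6. Stfa2 stood at 170, 33.1 and 24.7 FPKM in K10-spastin 1 to 3, against 7.78, 15.8 and 16.7 FPKM in controls 1 to 3, and it has close copies among which reads may have been split. The third for Gjb2 was Dusp10, a phosphatase of stress-activated kinases (0.44), and for Gjb6 it was Fchsd1, a membrane-shaping adaptor protein (0.45). The likeness covers the difference between groups as well as that within them, and the genes share the same libraries.

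The other members had patterns of their own. The 3 genes closest to Gja1 were Cd81, a tetraspanin, Nfx1 and Arfrp1, each at a root mean square difference of 0.05. Gja1 itself varied by 0.16 about its mean, so a small distance there reflects small variation and many genes are near it. The closest to Gjb5 were Aadacl2 (0.25), the retinol dehydrogenase Rdh12 (0.27) and Casp14, the caspase of cornifying keratinocytes (0.29). Casp14 stood at 170, 62.3 and 96.3 FPKM in K10-spastin 1 to 3, against 94.0, 104 and 87.1 FPKM in controls 1 to 3, with the first K10-spastin library highest and the second lowest, as for Gjb5.

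**Figure D4:**
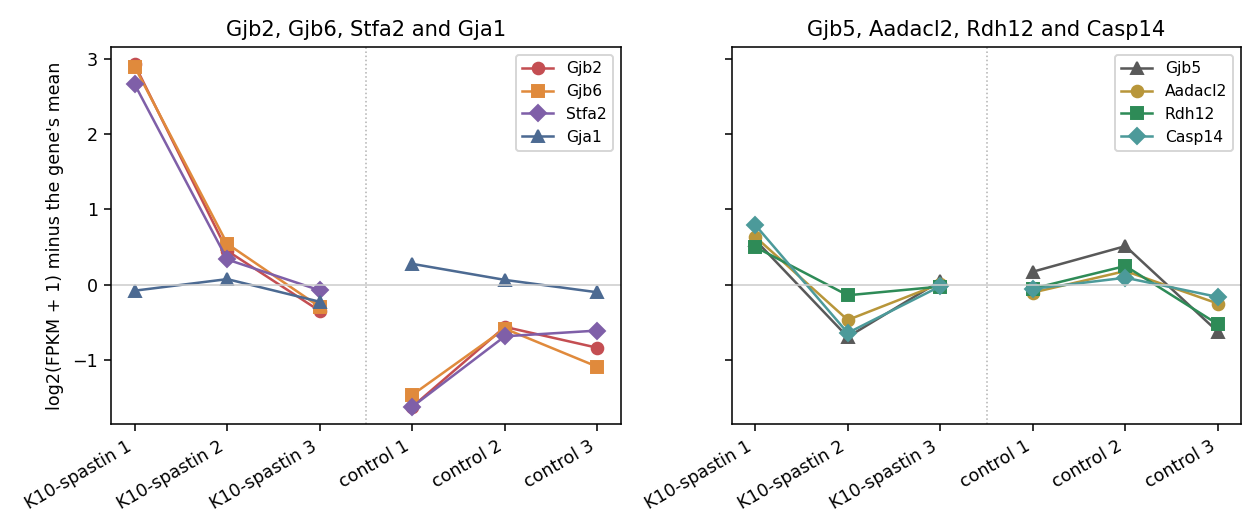
Log2(FPKM + 1) of each gene minus its own mean over the 6 libraries, with K10-spastin 1 to 3 left of the dotted line and controls 1 to 3 right of it; lines join libraries of a group to aid the eye and imply no order. Gjb2, Gjb6 and Stfa2 lie almost on each other in the left panel, and in the right panel Gjb5 and its 3 closest genes share a highest library, K10-spastin 1, and a lowest library within K10-spastin, K10-spastin 2.

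Connexin sequences are related, which bears on how reads could be split between them. The longest open reading frames in the GENCODE M21 transcripts were 1149 bases for Gja1, 681 for Gjb2, 816 for Gjb5 and 786 for Gjb6. Gjb2 and Gjb6 were the most alike of the 4, at 75.8% identity over the shorter frame, with no identical run beyond 20 bases and at most 84 identical bases in 100. Gjb5 was 59.9% to 63.7% identical to the other members, and Gja1 was 63.7% to 64.2% identical to them.

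Of the other 16 connexins 3 were tested, and 1 was called, lower in K10-spastin. Of all tested genes 11.0% were called, 5.90% of them in that direction out of all tested. Gjd3, which encodes connexin 30.2, fell to 1.38, 1.22 and 1.79 FPKM in K10-spastin 1 to 3, against 3.19, 3.28 and 3.97 FPKM in controls 1 to 3, with a log2 change of -0.87 ± 0.19 (SE; limma adjusted p = 0.0342). It was called in 8 of 16 other settings. It was not called without any one of the controls, without K10-spastin 2, with no filter, under quantile normalization, without K10-spastin 1 and control 1 together, or with the replicate number as a block (limma adjusted p = 0.103 with the replicate block). The remaining 13 had means under 1 FPKM and were not tested. Gja10, Gjd2, Gjd4 and Gje1 were listed at 0 in each library. The other 9 reached at most 1.39 FPKM, the value of Gjc1 in control 3. The pannexins, which form channels of a similar fold that do not usually couple cells, had 1 tested member of 3. Panx1 stood at 8.07, 13.6 and 11.3 FPKM in K10-spastin 1 to 3, against 12.6, 12.9 and 14.9 FPKM in controls 1 to 3 (log2 change -0.30 ± 0.21, SE; limma adjusted p = 0.372).

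Proteins that hold, deliver, modify and remove connexins formed the last list, with 29 of 31 genes tested. By limma 3 rose and 1 fell, against 5.14% and 5.90% of all tested genes, and the median log2 change was 0.08. All 4 were scaffold and membrane partners, of which 8 were tested. No gene was called among 4 of assembly and delivery, 7 of ubiquitin and turnover and 10 kinases of connexin 43. At an unadjusted p under 0.05 there were 9 of the 29, close to the 31.5% of all tested genes.

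Tjp1, which encodes ZO-1, a scaffold that binds the tail of connexin 43 at the edge of gap junctions, rose to 85.0, 84.7 and 63.0 FPKM in K10-spastin 1 to 3, against 46.5, 52.5 and 51.3 FPKM in controls 1 to 3. Its log2 change of 0.61 ± 0.16 (SE; limma adjusted p = 0.0493) sat at the threshold and was called in 3 of 17 other settings. This scaffold also serves tight and adherens junctions. Cask, a membrane scaffold, rose to 41.3, 39.6 and 36.5 FPKM in K10-spastin 1 to 3, against 23.1, 26.7 and 24.6 FPKM in controls 1 to 3 (log2 change 0.64 ± 0.13, SE; limma adjusted p = 0.0279). In both genes the groups did not overlap, as in 40.4% of all tested genes in either direction and 15.6% higher in K10-spastin.

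Cav1, the caveolar coat protein that binds connexin 43, fell to 7.04, 10.4 and 5.73 FPKM in K10-spastin 1 to 3, against 20.4, 18.4 and 30.6 FPKM in controls 1 to 3 (log2 change -1.47 ± 0.27, SE; limma adjusted p = 0.0195). Fibroblasts also express Cav1, and the 6 fibroblast markers summed to 0.791 to 3.03 FPKM in K10-spastin and 6.44 to 42.3 FPKM in controls, with 4 of the 6 at a mean of at least 1 FPKM. The 7 basal keratinocyte markers summed to 2533 to 4774 FPKM in K10-spastin and 4147 to 7235 FPKM in controls. Of these 7, only Krt15 was called by limma, lower in K10-spastin. The part of either cell type in the Cav1 difference was not tested. With the replicate block Tjp1, Cask and Cav1 were not called, and without any one of the controls no gene of the list was. Cask was also not called without K10-spastin 2, nor Cav1 without K10-spastin 1 and control 1 together. Each of these 2 genes was called in 12 of 17 other settings.

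The 4 most abundant genes of the list that were not called were the adherens junction protein Ctnnb1, the membrane-to-actin linker Ezr, the ubiquitin ligase Nedd4, which binds connexin 43, and the kinase Akt1. Ctnnb1 averaged 415 ± 61.0 FPKM in K10-spastin and 390.3 ± 28.5 FPKM in controls (SD, n = 3 each; limma adjusted p = 0.734). Ezr averaged 353 ± 26.8 FPKM in K10-spastin and 384 ± 63.2 FPKM in controls (SD, n = 3 each; limma adjusted p = 0.669). Nedd4 averaged 189.8 ± 57.7 FPKM in K10-spastin and 272 ± 12.7 FPKM in controls (SD, n = 3 each), without overlap and with a limma adjusted p of 0.1497. Akt1 averaged 140.2 ± 56.95 FPKM in K10-spastin and 191 ± 13.3 FPKM in controls (SD, n = 3 each; limma adjusted p = 0.283), with K10-spastin 1 at 75.4 FPKM and the others at 182 and 163 FPKM. Mapre1 and Dctn1, proteins of the microtubule route by which connexin 43 reaches junctions, had log2 changes of 0.13 ± 0.12 and -0.28 ± 0.14 (SE; limma adjusted p = 0.487 and 0.226) and were chosen after their values were seen. Neither overlapped between groups, with Mapre1 higher and Dctn1 lower in K10-spastin. Of all tested genes, 15.6% lay higher without overlap and 24.8% lower.

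**Figure D5:**
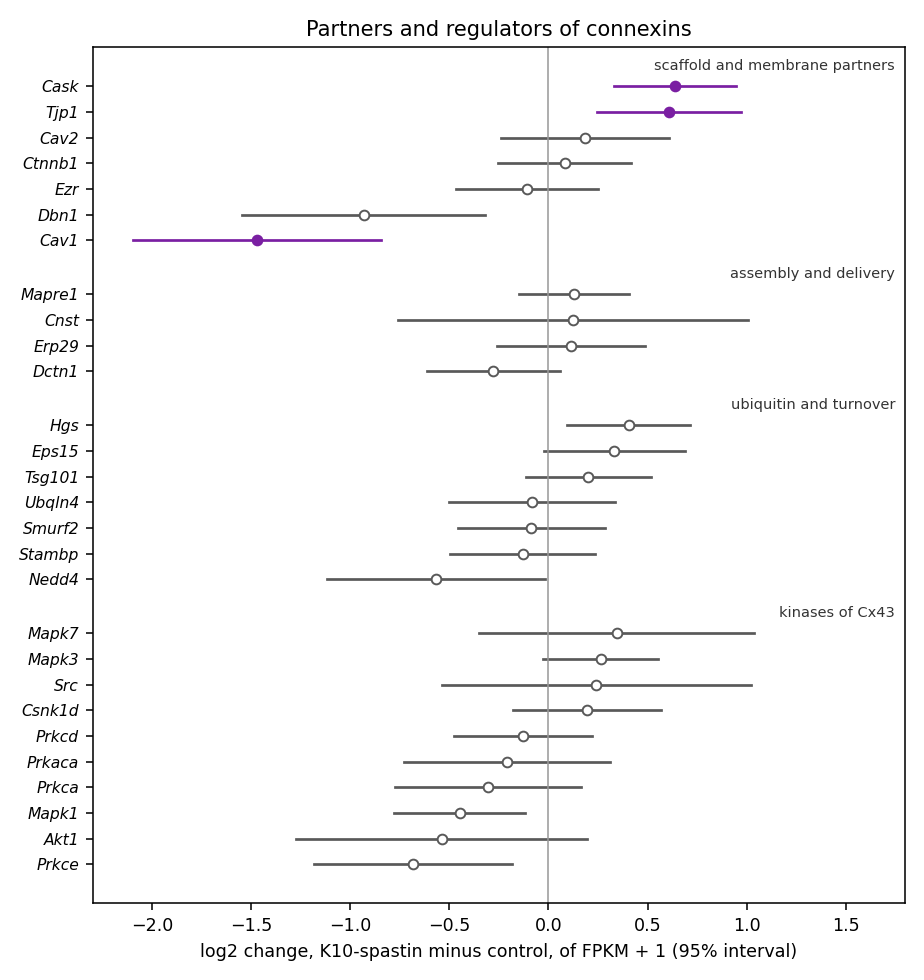
Log2 change of FPKM + 1, K10-spastin minus control, with 95% limma intervals, for tested partners and regulators by role; filled purple points passed an adjusted p of 0.05. The filled points, Cask, Tjp1 and Cav1, all lie in the uppermost group.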

How the data were processed

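The deposited table holds FPKM for 35275 Ensembl gene identifiers in 6 libraries, as the authors computed it, 1 column per library. The submitters' processing notes name CASAVA and TopHat2, without versions. No source used here gives the counter, the build, the annotation or the strand setting. Symbols matched 34490 identifiers. FPKM is not a count, so no count test was run. Depth was read from the step of low values in 14953 genes with 1 GENCODE M21 transcript, where 90.8% to 91.7% of values up to 20 fragments came out whole within 0.05. The authors may have used another annotation.

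The 11071 genes averaging 1 FPKM or more were compared on log2(FPKM + 1) with limma 3.58.1 in R 4.3.3 (lmFit, eBayes with a trend, two-sided, Benjamini-Hochberg over all genes tested). No covariate was used, since the labels do not say that a replicate number marks a litter or day. The members and lists were chosen with earlier results of these data known. Named were the 4 members, each connexin and pannexin with a mean of at least 1 FPKM, the called partners and the 4 most abundant others, and the 3 genes of at least 10 FPKM nearest to each member; some genes under this rule are not reported here. Other steps used Python 3.11.15, pandas 2.3.3, scipy 1.17.1 and matplotlib 3.10.9. Alternatives were other pseudocounts, filters, scalings and variance models, the replicate block and each library left out.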

Additional observations from a re-analysis of the deposited data

How the results depend on the processing

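Gja1, Gjb2, Gjb5 and Gjb6 stayed uncalled by limma in 17 other settings, except that Gjb6 passed without K10-spastin 3. Over the libraries left out in turn the log2 change ran from -0.25 to -0.06 for Gja1, 1.06 to 2.70 for Gjb2, -0.36 to 0.30 for Gjb5 and 1.17 to 2.77 for Gjb6. Gjb5 changed sign under median-of-ratios scaling (0.11), without K10-spastin 2 (0.30), without control 1 (0.04) and without control 2 (0.21), always within its interval. Array weights, which give less weight to libraries that depart from their group, gave 0.76 for Gjb2 and 0.91 for Gjb6. With the replicate block the log2 changes kept their values, with adjusted p of 0.165 for Gjb2, 0.129 for Gjb6, 0.599 for Gja1 and 0.966 for Gjb5. The numbers were not taken as pairs in the main comparison because the labels do not call them so. Deviations of same-numbered libraries from their group means gave r = -0.13, -0.38 and -0.05 over 11071 genes. Differently numbered libraries gave r from -0.09 to 0.27. Deviations within a group of 3 are tied to each other, so these r values do not settle the pairing. Leaving out K10-spastin 1 and control 1 together, added after the data were seen, gave 0.75 for Gjb2 and 0.96 for Gjb6. The differences in share between groups ran, over the libraries left out, from -35.1 to -11.6 percentage points for Gja1, 8.52 to 26.3 for Gjb2, 3.85 to 10.4 for Gjb6 and -1.64 to -0.44 for Gjb5.

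Of all tested genes 569 were higher and 653 lower in K10-spastin. These counts were 319 and 348 with no filter, 1535 and 1771 with array weights, 274 and 218 with the replicate block, 471 and 414 with a filter at 5 FPKM, and 113 to 691 and 32 to 701 over the libraries left out, from fewer libraries. Of the other connexins 1 was called. No member of that list was called with no filter, with a filter at 5 FPKM, which removes Gjd3, under quantile normalization, with the replicate block, or with K10-spastin 1 and control 1 left out, and 2 were with array weights; the count was 0 to 1 over the libraries left out. Partners and regulators had 4 calls, 9 with array weights, 1 with the replicate block, 1 with K10-spastin 1 and control 1 left out, and 0 to 4 over the libraries left out. The cause of these shifts was not tested. Each group had 3 libraries, and depth is known only as an estimate from the values. Gja1 and Gjb6 have more than 1 annotated transcript, so their values were not turned into fragments. No limit set by depth is given for them.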
